A study of Homo sapiens with 6 samples.

Results

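The zinc finger genes of human chromosome 19 described here lie in a cluster at 19q13.31, at a single locus at 19q13.33 and in a cluster at 19q13.41 to 19q13.42. The genes were listed by symbol, 51 in all, and those with a raw total of 30 or more counts over the 6 libraries were used, which left 48 of the 51. The 3 genes not used were ZNF836 with 13 counts in total, ZNF610 with 14 and ZNF880 with 5, and the used gene nearest to the limit was ZNF415 with 38. All 48 passed the filter on low values, among 19114 genes tested of 34998 with any count. On GRCh38 with GENCODE release 44, the 17 genes of 19q13.31 ran from ZNF221 to ZNF180 (chr19:43951223-44500524), ZNF473 stood alone at chr19:50025714-50053414, and the 30 used genes of 19q13.41 to 19q13.42 ran from ZNF613 to ZNF331 (chr19:51927147-53580269).

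The libraries came from K562, a human leukemia line with erythroid features, which the labels give as K-562 and as a lymphoblast. In all of them the endogenous EP400, the scaffold and ATPase subunit of the TIP60 chromatin complex, carried a dTAG degradation tag, and all received 500 nM dTAGV-1, the degrader of that tag, for 24 h. The WT group expressed exogenous WT EP400 and the Delta-TRRAP group exogenous EP400 without the region that recruits TRRAP, a large scaffold protein of the complex, with 3 libraries in each group. Each complemented line was 1 clone, so clone and genotype cannot be told apart, and the 3 libraries of a group, which the study calls biological replicates, share that clone. The comparison asked how RNA levels differ when EP400 cannot bring TRRAP into the complex.

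C2H2 zinc finger proteins read DNA through tandem fingers, short repeats that each hold a zinc ion between paired cysteines and histidines. Most of those encoded in the chromosome 19 clusters carry a KRAB domain, which binds TRIM28 and through it SETDB1 and HP1, and many silence transposable elements. Clustered genes of this kind arose by tandem duplication and resemble each other in sequence.

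Library totals were 35076835 to 42616061 counts. EP400 (chr12:131949942-132080460), whose gene count also takes in reads of the transgene and cannot show the deleted region, had normalized counts of 4897, 4897 and 5377 in WT and 5533, 6833 and 4357 in Delta-TRRAP, and the groups overlapped (log2 fold change 0.14 ± 0.11 (SE), edgeR adjusted p = 0.272). The third Delta-TRRAP library lay below all WT libraries for this gene, and without the second the log2 fold change was -0.026. Without the third it was 0.29 (adjusted p = 0.00149), and with library size scaling it was 0.27 (adjusted p = 0.0357). Mitochondrial transcripts took a share of 3.18% to 3.71% in the WT libraries and a higher one, 5.07% to 6.24%, in the others. The summed level of 11 erythroid markers was from 5517 to 5551 in counts scaled to the library total (CPM) in the WT libraries and from 4106 to 4191 in the Delta-TRRAP libraries, with all 11 tested. That of 8 lymphoid markers was 12.5 to 12.7 and 12.1 to 13 CPM, with MS4A1, a defining B cell marker, at 0 in every library, which bears on the labelled cell type. The sum of 8 fibroblast or smooth muscle markers went from between 2.7 and 3.23 CPM to between 42.4 and 42.7, with 3 of the 8 called higher and LUM at 0 in every library. The 3 were COL1A2, PDGFRB and ACTA2, with WT means of 1.62, 1.65 and 0.32 normalized counts. They passed the filter on low values only through the Delta-TRRAP libraries. ITGA2B, a platelet integrin that marks megakaryocytes, had 646, 639 and 697 normalized counts in WT and 104, 75.1 and 88.9 in Delta-TRRAP and was called lower (log2 fold change -2.89 ± 0.10, adjusted p = 2.17e-12), and GP9, PF4 and GP1BA, also of that lineage, were at 0. The part of these differences in the results below was not tested.

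Promoter sequences are shown first because they carry the feature that many of these genes share. RefSeq promoters (GRCh38.p14, 250 bases before to 50 after each start site) were matched for 39 of the 48 genes. The 7 bases CCGGAAG, the core bound by ETS family factors, searched on both strands, occurred in 23 of the 39 (59.0%), against 10.7% of 27305 promoters of all genes, 40.8% of 169 promoters of other zinc finger genes on chromosome 19 and 36.9% of 195 of zinc finger genes on other chromosomes. The windows below run from 50 bases before to 24 after the start base, on the strand of the gene, for the 5 genes called higher in Delta-TRRAP (ZNF528, ZNF534, ZNF578, ZNF677 and ZNF331), the 1 called lower (ZNF611) and 3 others of the same cluster, with CCGGAAG in capitals.
ZNF528: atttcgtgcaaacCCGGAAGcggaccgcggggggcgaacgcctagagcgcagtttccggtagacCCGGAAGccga
ZNF534: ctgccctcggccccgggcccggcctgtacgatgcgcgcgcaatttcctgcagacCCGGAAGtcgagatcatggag
ZNF578: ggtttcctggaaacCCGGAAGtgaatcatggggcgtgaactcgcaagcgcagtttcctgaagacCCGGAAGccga
ZNF677: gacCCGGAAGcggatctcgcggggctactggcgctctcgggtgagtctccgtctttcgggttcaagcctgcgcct
ZNF611: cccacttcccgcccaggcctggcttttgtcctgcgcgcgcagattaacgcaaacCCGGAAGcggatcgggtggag
ZNF808: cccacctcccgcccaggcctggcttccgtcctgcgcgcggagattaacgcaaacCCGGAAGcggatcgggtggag
ZNF845: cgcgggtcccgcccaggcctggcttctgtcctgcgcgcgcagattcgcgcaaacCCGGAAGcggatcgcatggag
ZNF616: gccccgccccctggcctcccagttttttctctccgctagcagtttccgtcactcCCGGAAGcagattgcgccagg
ZNF331: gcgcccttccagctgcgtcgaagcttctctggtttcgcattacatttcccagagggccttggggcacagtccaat
The windows lie at chr19:52397799-52397873 for ZNF528, chr19:52429098-52429172 for ZNF534, chr19:52453503-52453577 for ZNF578, chr19:52527618-52527692 for ZNF808, chr19:53333699-53333773 for ZNF845 and chr19:53520964-53521038 for ZNF331, on the plus strand, and at chr19:53254799-53254873 for ZNF677, chr19:52735020-52735094 for ZNF611 and chr19:52139914-52139988 for ZNF616, on the minus strand.

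The position of the motif was shared within 19q13.41 to 19q13.42. Of the 26 genes there with a promoter, 18 held it, all in the orientation of the gene, and in 10 of them (ZNF841, ZNF616, ZNF766, ZNF534, ZNF808, ZNF611, ZNF160, ZNF347, ZNF845 and ZNF765) its first base lay 4 bases after the start base. ZNF528 and ZNF578, neighbours but for ZNF534, each held 2 copies, with first bases at -37 and 14 in ZNF528 and at -36 and 14 in ZNF578. ZNF677 held a copy at -47, and ZNF331 held none in its window. In 19q13.31, 5 of 13 promoters held the motif, 4 of them as the reverse complement, at positions from -174 to -8. The ZNF808 and ZNF611 windows had the same base at 71 of 75 positions (94.7%), the closest pair, followed by ZNF845 and ZNF765 with 69 of 75. The E-box CACGTG occurred in 0 of 39 promoters, against 7.44% of all promoters, and the motif ACTACAA and the NRF1 motif in 2 each (5.13%), against 2.95% and 1.36%. In other zinc finger genes of chromosome 19 the E-box, ACTACAA and NRF1 shares were 4.73%, 5.33% and 1.78%. In those of other chromosomes they were 6.15%, 5.64% and 3.08%. The promoters of the cluster genes held a median of 23 CpG dinucleotides, against 14 over all promoters, and 89.7% of them had 15 or more, against 48.8%. Other zinc finger genes of chromosome 19 had a median of 20, with 71.0% at 15 or more. Those of other chromosomes had a median of 24, with 82.05% at 15 or more. A match is a description of letters, and no binding was measured here.

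**Figure D1:**
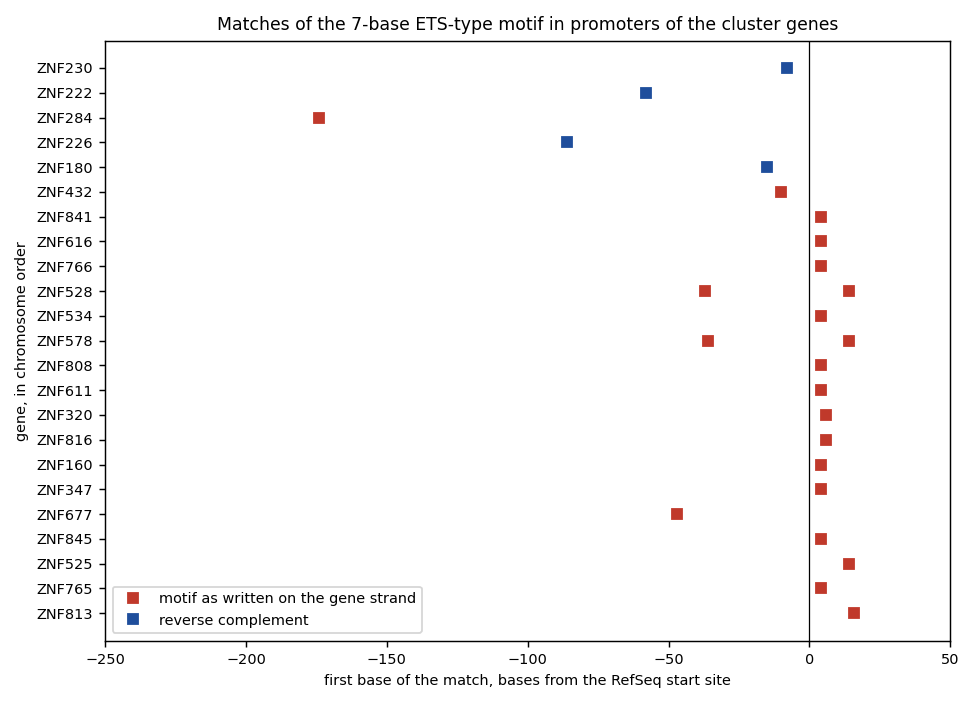
Position of each CCGGAAG match in the promoters of the 23 cluster genes that hold one; the x axis gives the first base of the match relative to the RefSeq start base at 0, the y axis the gene in chromosome order, red the motif as written on the gene strand and blue its reverse complement. In 19q13.41 to 19q13.42 all matches are red and 10 genes align at 4 bases after the start.

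Levels were compared between genes as normalized counts per kb of merged exon. ZNF480 stood highest in both groups, at 643 in WT and 518 in Delta-TRRAP. ZNF473, which binds the U7 small nuclear ribonucleoprotein that cuts histone pre-mRNA and is also known as ZFP100, was at 528 per kb in WT, ahead of ZNF816 at 505 and ZNF28 at 491. The lowest level in WT was that of ZNF578 at 1.17 per kb, next to ZNF415 at 1.69 and ZNF223 at 2.39. In Delta-TRRAP, ZNF415 was lowest at 1.69 and ZNF578 reached 9.23. Genes of 19q13.41 to 19q13.42 filled 9 of the 10 highest ranks in WT, and the remaining one was ZNF473. With the longest transcript as the length, ZNF480 ranked 3 and ZNF28 ranked 7 in WT.

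**Figure D2:**
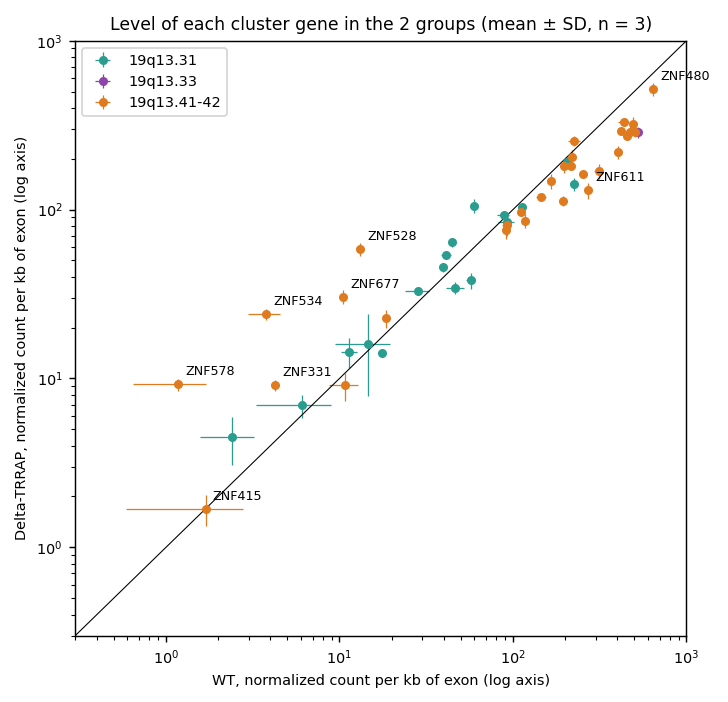
Level of each of the 48 genes in WT (x axis) and Delta-TRRAP (y axis) as normalized count per kb of merged exon, on log axes, mean ± SD of 3 libraries, coloured by cluster; the line marks equal levels. ZNF578, ZNF534, ZNF528, ZNF677 and ZNF331 lie above the line at low WT levels, and most genes above 100 per kb lie below it.

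Over the 48 genes, 5 were called higher and 1 lower in Delta-TRRAP (edgeR quasi-likelihood test, Benjamini-Hochberg adjusted p of at most 0.01 over all tested genes and a fold change of at least 2), which was 12.5%, against 22.6% of all tested genes (16.5% higher and 6.08% lower). By the adjusted p alone, 8 were higher and 20 lower (41.7% of the 48 lower), and 20 did not pass. Over all tested genes, 30.7% were higher and 27.6% lower (58.3% in either direction). Of the zinc finger genes elsewhere, 42.9% on 19p, 41.7% on the rest of 19q and 29.7% on other chromosomes were lower. The share of the 48 was thus close to that of zinc finger genes elsewhere on chromosome 19. With library size scaling, the split of the 48 was 11 higher and 15 lower. That scaling moved the median of all tested genes from 0.03 to 0.17. With upper quartile scaling the split of the 48 was 11 and 18. The median log2 fold change was -0.17, against 0.03 over all tested genes, -0.13 over the 1328 tested genes of chromosome 19 and -0.088 over the genes whose normalized counts averaged 100 or more. In 33 of the 48 (68.8%) no WT library overlapped the Delta-TRRAP range, against 71.1% of all tested genes. Summed over the 48 genes, the normalized count lay between 48654 and 49724 in WT and between 34388 and 38071 in Delta-TRRAP, without overlap.

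The direction went with the level. Of the 19 genes whose normalized counts averaged 1000 or more, 18 had a negative log2 fold change, 14 (73.7%) were lower by the adjusted p and 0 were higher, with a median of -0.60. With library size scaling 15 were negative, 12 lower by the adjusted p and 1 higher. Over all tested genes at that level the median was -0.14 and 45.9% were lower by the adjusted p. All 8 cluster genes with a mean under 100 had a positive log2 fold change (ZNF415 alone turned with RLE scaling), with 3 called higher (37.5%), against 30.8% called higher and a median of 0.44 over all tested genes under 100. Across the 48 genes the log2 fold change and the log2 WT level, which share the WT libraries, had a Spearman's rho of -0.80 (-0.55 over the 17 genes of 19q13.31 and -0.79 over the 30 of 19q13.41 to 19q13.42), given as a description.

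**Figure D3:**
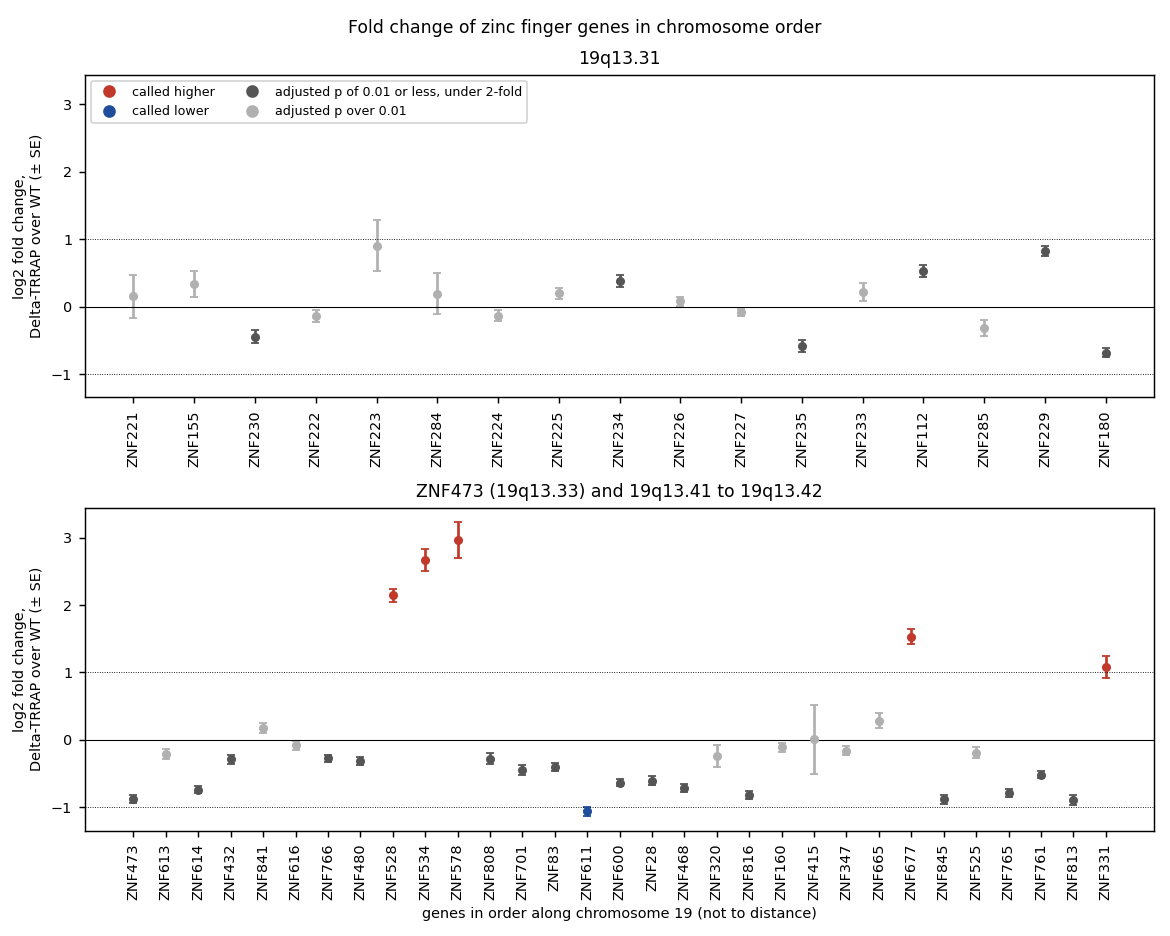
Log2 fold change (Delta-TRRAP over WT, ± SE) of the 48 genes in chromosome order, 19q13.31 in the upper panel and ZNF473 with 19q13.41 to 19q13.42 in the lower; dotted lines mark a fold change of 2, red and blue points the genes called higher and lower, dark grey those past the adjusted p alone. ZNF528, ZNF534 and ZNF578 form an adjacent group above the line, followed by a run of 10 genes below 0 from ZNF808 to ZNF160, the last of which turns above 0 with library size scaling.

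The largest rises were in 3 genes that are adjacent among those used, ZNF528, ZNF534 and ZNF578, all on the plus strand. ZNF528 (chr19:52397849-52418412), a KRAB zinc finger gene, had normalized counts of 119, 109 and 108 in WT and 523, 517 and 447 in Delta-TRRAP. The lowest Delta-TRRAP library was well above the highest WT library, and ZNF528 rose 4.43-fold (log2 fold change 2.15 ± 0.10, adjusted p = 3.47e-11). ZNF534 (chr19:52429148-52452315) had 20.3, 22.1 and 29.5 in WT and 165, 153 and 141 in Delta-TRRAP. The groups were again apart, with a rise of 6.38-fold (log2 fold change 2.67 ± 0.17, adjusted p = 1.49e-09). ZNF578 (chr19:52453553-52516882) had 11.2, 8.63 and 4.07 in WT and 68.6, 60.4 and 59.2 in Delta-TRRAP. It was the lowest of these genes in WT and had the largest log2 fold change of the 48 genes, 2.96 ± 0.27 (adjusted p = 1.07e-07). Summed over the 3 genes, the WT libraries lay between 140 and 150 and the Delta-TRRAP libraries between 647 and 756.

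The neighbours of this group were looked at after its values were seen. ZNF528-AS1, a noncoding RNA gene that starts beside ZNF528 on the other strand (chr19:52388836-52397791), had 24.3, 31.7 and 44.8 in WT and 186, 161 and 226 in Delta-TRRAP, a log2 fold change of 2.50 ± 0.19 (adjusted p = 1.55e-08). The noncoding AC010332.3, which overlaps the start of ZNF578 on the same strand, was called higher as well, with a log2 fold change of 1.80 ± 0.35 (adjusted p = 0.00028). The stretch of 128 kb from ZNF528-AS1 to ZNF578 was bounded by these called genes, so the call of all its tested genes follows from how it was drawn. Over the whole of 19q13.41 to 19q13.42, 6 of 17 genes that are not zinc finger genes were called higher (35.3%, against 16.5% of all tested genes). The median level of the 17 was 38.9 normalized counts, and 30.8% of all tested genes averaging under 100 were called higher. On the near side of the 128 kb stretch ZNF610 had raw counts of 0, 2 and 1 in WT and 4, 3 and 4 in Delta-TRRAP and ZNF880 0, 0 and 1, and 2, 2 and 0, both at or close to 0 in each group. Beyond them ZNF480 had 3185, 3221 and 2944 in WT and 2504, 2725 and 2297 in Delta-TRRAP, without overlap and lower in Delta-TRRAP (log2 fold change -0.31 ± 0.06, adjusted p = 0.000421). On the far side ZNF808 was lower (log2 fold change -0.28 ± 0.08, adjusted p = 0.0075).

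ZNF677 and ZNF331, farther along the same cluster, were also called higher. ZNF677 (chr19:53235381-53254898), which is often silenced by promoter methylation in tumours, had 99.3, 95.9 and 98.7 in WT and 286, 309 and 255 in Delta-TRRAP. The WT libraries were close together and all Delta-TRRAP libraries lay above them, a rise of 2.89-fold (log2 fold change 1.53 ± 0.11, adjusted p = 6.04e-09). ZNF331 (chr19:53519527-53580269), an imprinted gene, had 36.5, 39.3 and 35.6 in WT and 80.4, 72.1 and 84.6 in Delta-TRRAP. The groups did not overlap, and ZNF331 rose 2.13-fold (log2 fold change 1.08 ± 0.16, adjusted p = 2.28e-05), close to the fold threshold.

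ZNF611 (chr19:52702813-52735073), whose protein binds SVA retrotransposons, was the cluster gene called lower. It had 1888, 1941 and 1984 in WT and 931, 1023 and 829 in Delta-TRRAP, without overlap (log2 fold change -1.06 ± 0.07, adjusted p = 1.86e-09). Its fold change fell short of 2 with scaling by library size alone (-0.93), upper quartile scaling (-0.96), a minimum mean of 50 (-0.99) and without the third Delta-TRRAP library (-0.99), so the call rests on the setting while the direction does not. Next to it, past the adjusted p and under a fold change of 2, stood ZNF813 (-0.89), ZNF845 (-0.88), ZNF473 (-0.88), ZNF816 (-0.81), ZNF765 (-0.79), ZNF614 (-0.74) and ZNF468 (-0.72) in log2 fold change. The ratio of ZNF611 to ZNF808, the pair with the most alike promoter windows, was 4.15, 4.21 and 4.35 in WT and 2.33, 2.55 and 2.52 in Delta-TRRAP. This ratio within a library needs no scaling. Its log2 value fell by 0.78 (exact two-sided permutation test, p = 0.1, the smallest that 3 against 3 libraries allow). The ratio comes from the same counts as the log2 fold changes of ZNF611 (-1.06) and ZNF808 (-0.28), so it is no separate support for either.

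ZNF473 had 3495, 3685 and 3738 normalized counts in WT and 2054, 2073 and 1816 in Delta-TRRAP, without overlap (log2 fold change -0.88 ± 0.06, adjusted p = 3.45e-09). Of 13 genes of histone pre-mRNA 3′ end processing, the pathway in which ZNF473 acts, 1 was called higher and none lower. The share called higher was 7.69%, against 16.5% of all tested genes and 2.41% of those averaging 1000 or more. By the adjusted p alone 2 were higher and 6 lower, with a median log2 fold change of -0.11. The 6 made up 46.2% of the list, against 45.9% of all tested genes averaging 1000 or more. The called gene was LSM11, a core protein of the U7 particle, which rose from 751, 705 and 753 to 1529, 1517 and 1513 (log2 fold change 1.05 ± 0.05, adjusted p = 1.95e-10). ZNF28 had 2920, 2883 and 3001 in WT and 1929, 2110 and 1750 in Delta-TRRAP (log2 fold change -0.60 ± 0.06, adjusted p = 4.95e-07), again without overlap. It shares its locus and strand with ZNF468.

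In 19q13.31 no gene was called by edgeR or by DESeq2, against 22.6% of all tested genes by edgeR. An unadjusted p under 0.05 was found for 9 of the 17, against 13452 of all 19114. By the adjusted p alone, ZNF229, ZNF112 and ZNF234 were higher and ZNF180, ZNF235 and ZNF230 lower, and the median log2 fold change was 0.15. The sign of that median turned without the second WT library (-0.082) and with a minimum mean of 50 (-0.012). ZNF180 (chr19:44474428-44500524), at the distal end of the cluster, had 1108, 1086 and 1053 in WT and 623, 664 and 736 in Delta-TRRAP. It fell by 0.68 on the log2 scale (SE 0.07, adjusted p = 2.2e-07), and its neighbour ZNF229 on the same strand, with 345, 314 and 324 in WT and 555, 641 and 545 in Delta-TRRAP, rose by 0.83 (SE 0.08, adjusted p = 2.5e-07). Neither pair of groups overlapped. ZNF224, which encodes a repressor of the aldolase A gene, had 676, 573 and 707 in WT and 610, 566 and 606 in Delta-TRRAP. Its groups overlapped (log2 fold change -0.13 ± 0.08, adjusted p = 0.145). Summed over the 17 genes, the normalized count lay between 5499 and 5644 in WT and between 5243 and 5414 in Delta-TRRAP.

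The 4 genes with the smallest change included 2 of this cluster. ZNF226 had 665, 572 and 597 in WT and 617, 659 and 660 in Delta-TRRAP (log2 fold change 0.08 ± 0.07), and ZNF227 had 983, 1048 and 1064 and then 972, 998 and 950 (-0.08 ± 0.06). In the other cluster, ZNF616 had 1001, 1090 and 1111 in WT and 973, 1111 and 947 in Delta-TRRAP (-0.08 ± 0.07), with CCGGAAG at the same place as in ZNF611. The groups overlapped for all of these. ZNF415 had 10.1, 1.92 and 7.12 in WT and 4.90, 6.82 and 7.40 in Delta-TRRAP (0.01 ± 0.51), with an SE far larger than the estimate. The signs of ZNF227 and ZNF616 turned with library size and upper quartile scaling.

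**Figure D4:**
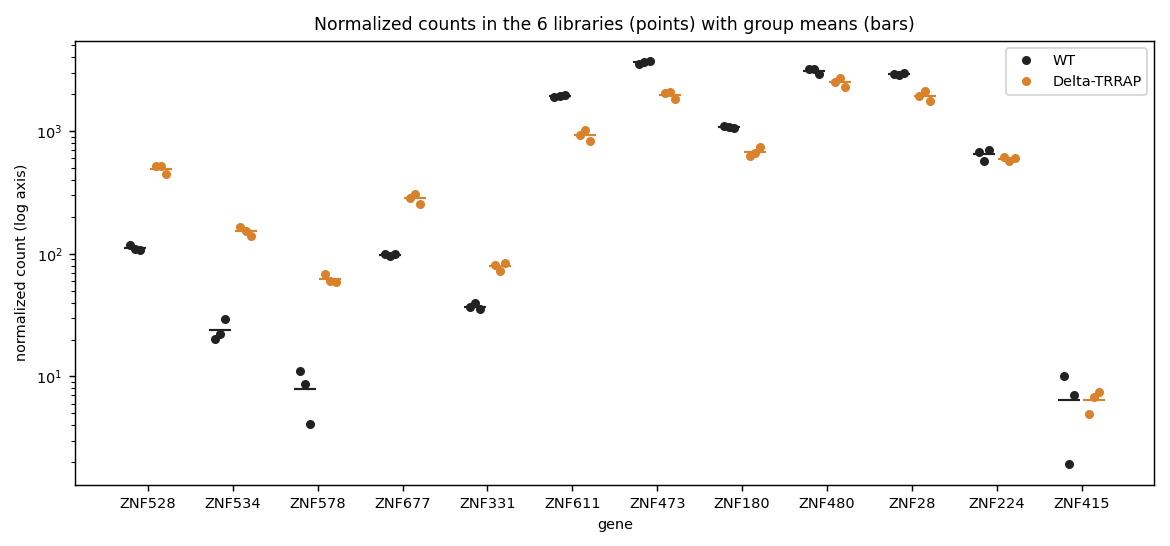
Normalized counts of 12 zinc finger genes in the 3 WT (black) and 3 Delta-TRRAP (orange) libraries on a log axis, with bars at the group means. The groups are apart from ZNF528 through ZNF28 and overlap for ZNF224 and ZNF415.

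In 19q13.41 to 19q13.42 the median log2 fold change over the 30 genes was -0.27, with 5 called higher (16.7%, against 16.5% of all tested genes) and 1 lower (3.33%, against 6.08%). By the adjusted p alone 16 were lower (53.3%, against 27.6% of all tested genes and 45.9% of those averaging 1000 or more). Without ZNF528, ZNF534 and ZNF578 the median was -0.29 over 27 genes. The longest run of one sign held 10 genes, ZNF808 to ZNF160, all with a negative log2 fold change (ZNF160 turned to 0.022 with library size scaling), and a further 5, ZNF845 to ZNF813, lay together, among them ZNF845 and ZNF765. Within the first run lie ZNF611 and ZNF808, which is known to bind MER11 elements, and ZNF160. ZNF160 had 1655, 1684 and 1681 in WT and 1581, 1669 and 1396 in Delta-TRRAP, with overlap (log2 fold change -0.11 ± 0.06, adjusted p = 0.128). The other 6 tested zinc finger genes of that interval, outside the list, had a median of -0.13, with none called by edgeR at these thresholds and 3 with an unadjusted p under 0.05.

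Among the genes of the 3 intervals that are not zinc finger genes (with 0.5 Mb on each side of ZNF473), 8 of 56 were called higher and 2 lower. These were 14.3% and 3.57%, against 16.5% and 6.08% of all tested genes. The median log2 fold change of the 56 was -0.08, or -0.19 over the 36 protein-coding ones. Inside 19q13.41 to 19q13.42, chosen after their values were seen, ERVV-1 and ERVV-2, closely related envelope genes of endogenous retroviruses, had raw counts of 0, 1 and 0 and of 1, 0 and 1 in WT. In Delta-TRRAP they had 12, 11 and 19 and 17, 28 and 26. Both were called higher, and reads that fit both copies were not counted. Their WT means were 0.32 and 0.68 normalized counts, so both passed the minimum mean of 5 only through the Delta-TRRAP libraries. At such a WT level only a gene that rises can be tested, so these calls carry little weight. AC010328.1 and FAM71E1, also called higher in these intervals, had WT means of 1.3 and 1.99 and passed in the same way. AC022150.4, which lies within the ZNF83 locus on the same strand, had 566, 544 and 594 in WT and 175, 202 and 108 in Delta-TRRAP and was called lower (log2 fold change -1.81 ± 0.14, adjusted p = 1.63e-08), beside ZNF83 at -0.40 ± 0.06. Zinc finger genes elsewhere had medians of -0.06 on 19p (70 genes, 12 called higher and 4 lower), -0.13 on the rest of 19q (96 genes, 14 and 4) and -0.01 on other chromosomes (212 genes, 24 and 6). The shares called higher were 17.1%, 14.6% and 11.3%, against 16.5% of all tested genes. Those called lower were 5.71%, 4.17% and 2.83%, against 6.08%.

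**Figure D5:**
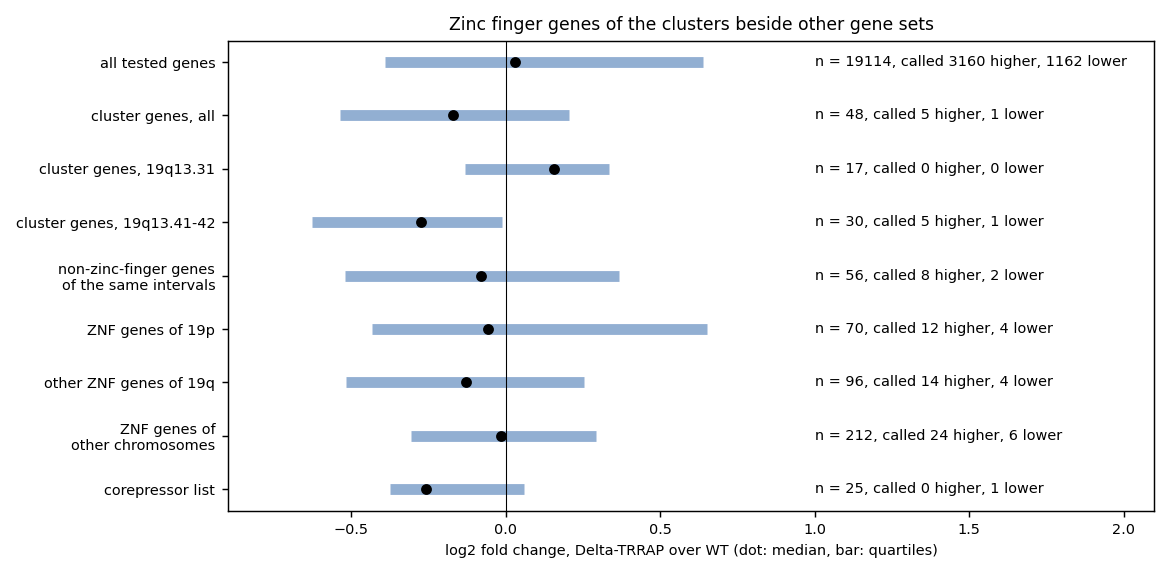
Median (dot) and quartiles (bar) of the log2 fold change, Delta-TRRAP over WT, in the zinc finger clusters and in other gene sets, with the number tested and called at the right. The 19q13.41 to 19q13.42 genes have a median of -0.27 and those of 19q13.31 a median of 0.15, beside 0.03 for all tested genes.

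The corepressor genes through which KRAB zinc finger proteins act are taken next. Of 25 matched genes, 1 was called (4%, against 22.6% of all tested genes and 6.31% of those averaging 1000 or more). The called gene was UHRF1, which maintains DNA methylation. It stood at 3341, 3369 and 3603 in WT and 1423, 1422 and 1351 in Delta-TRRAP (log2 fold change -1.30 ± 0.05, adjusted p = 1.24e-11). By the adjusted p alone 3 were higher and 15 lower (7 and 11 with library size scaling), with a median log2 fold change of -0.26. The 15 made up 60% of the list, against 27.6% of all tested genes and 45.9% of those averaging 1000 or more, and the median level of the list was 4980. TRIM28, the shared corepressor, was lower with 22885, 23380 and 24052 in WT and 15636, 15412 and 15542 in Delta-TRRAP (-0.59 ± 0.05, adjusted p = 3.22e-08). SETDB1, the histone H3 lysine methyltransferase of the complex, had 1906, 1863 and 1991 in WT and 1904, 1997 and 1837 in Delta-TRRAP, with overlap (-0.005 ± 0.053, adjusted p = 0.941), and its sign turned with scaling.

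Sequence features that the choice of genes did not use were set beside the change as descriptions. The coding sequences encoded 463 to 970 residues with 7 to 26 C2H2 fingers (median 13.5), fewest in ZNF230, ZNF233 and ZNF701 and most in ZNF845, and the number of fingers had a Spearman's rho of 0.00 with the log2 fold change over the 48 genes. Over the 39 genes with a promoter, rho was -0.33 for the number of CpG dinucleotides and -0.31 for the GC share. The median log2 fold change was -0.19 with CCGGAAG in the promoter (23 genes, 4 called higher and 1 lower). It was -0.17 without the motif (16 genes, 1 called higher and 0 lower). Over all tested genes 16.5% were called higher and 6.08% lower, and the few calls do not set the 2 groups of promoters apart. Because only uniquely mapping reads were counted, genes with close copies can lose reads. A median of 2.21% of a gene's exonic 50-base words occurred in another gene, at most 12.1% (ZNF285), and over 5% in 10 genes, among them ZNF611 (8.58%), ZNF578 (8.35%) and ZNF808 (11.9%). This share had a rho of -0.36 with the log2 fold change over the 48 genes and of -0.49 over the 30 of 19q13.41 to 19q13.42. ZNF528 stood at 0.84%, ZNF677 at 1.65% and ZNF331 at 0.44%. Over 5% of exon bases lay under another gene on the same strand in 7 genes, highest in ZNF223 (45.7%) and ZNF284 (44%), whose levels are therefore uncertain.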

How the data were processed

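Poly(A)-selected RNA of 6 K562 libraries was sequenced. The deposited counts per gene were made by the authors with STAR on hg38, keeping uniquely mapping reads, and htseq-count (HTSeq 2.0.2 per the labels), reverse-stranded, on GENCODE release 32. The authors' comparison table (fold changes and p-values) and normalized table were not used, and 3 columns of per-sample values there belong to no sample analysed here.

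The members and gene lists were chosen with earlier results of these data known. Groups came from the sample titles. Testing took the genes whose normalized counts averaged 5 or more across the libraries, with the quasi-likelihood test of edgeR 4.0.16 (R 4.3.3, TMM scaling, group as the only term) and called at a Benjamini-Hochberg adjusted p of at most 0.01 and a fold change of at least 2, the thresholds of the study, which used DESeq2. DESeq2 1.42.0 served as an alternative. For display, each count was divided by its library's effective (TMM) size over the geometric mean of these sizes. Coordinates and exons were those of GENCODE release 44, in which 19041 of the 19114 tested genes had an ID. Fingers were counted, by the spacing of cysteines and histidines, in translated GENCODE coding sequences (MANE Select where given, otherwise the longest) and not in RefSeq proteins as planned, so no identity between proteins is given. FAM208A of the corepressor list was not matched by symbol. A further marker list is not reported here in full.

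Values in every library are given for called genes averaging 20 or more normalized counts, the 3 highest per kb by the mean of both groups, the 4 with the smallest change, ZNF180, ZNF473, ZNF331, ZNF224, EP400, the called genes of the lists, TRIM28 and SETDB1. Other genes given so were chosen after their values were seen. Library totals were 35076835 to 42616061 counts, and depth limits the lowest genes most. Between same-group libraries the squared difference per gene averaged 5.43 to 17.5 times the variance of counting noise.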

Additional observations from a re-analysis of the deposited data

How the results depend on the processing

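The 5 zinc finger genes called higher kept that call under every setting but a minimum mean of 50, where ZNF578 was not tested. The count called lower was 0 with library size scaling, upper quartile scaling, a minimum mean of 50 and without the third Delta-TRRAP library (0 to 1 over the fits that left out 1 library), and ZNF611 then stood at -0.93, -0.96, -0.99 and -0.99 in log2 fold change. With a fold change of 1.5, 6 were called higher and 12 lower, 3 in 19q13.31 and 14 in 19q13.41 to 19q13.42, beside 4 corepressor genes, 2 of the histone list and 6750 of all genes (2562 lower). A minimum mean of 50 left 1964 of all genes called (1291 higher, 673 lower).

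Scaling moved the medians: with library size the median log2 fold change was -0.0397 over the 48 genes, 0.29 in 19q13.31, -0.14 in 19q13.41 to 19q13.42 and -0.12 over the corepressors, as that of all tested genes moved from 0.03 to 0.17. With upper quartile scaling these were -0.0728, 0.25, -0.17, -0.16 and 0.13. The median of the 48 genes relative to that of all tested genes was -0.20, and -0.27 with no filter. With no filter the 19q13.31 median was 0.13 and that of the corepressors -0.28, and with a minimum mean of 50 they were -0.012 and -0.19. The protein-coding genes of the intervals had a median of -0.19. The genes set beside the 48 had a median of -0.13 when taken from chromosome 19 alone and -0.088 at a mean of at least 100, 2 alternatives chosen after seeing the data.

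Leaving out 1 library at a time gave medians of -0.25 to -0.12 over the 48 genes, -0.082 to 0.17 in 19q13.31, -0.31 to -0.22 in 19q13.41 to 19q13.42, -0.27 to -0.13 for the 48 relative to all tested genes, and -0.28 to -0.23 over the corepressors, and EP400 ranged from -0.026 to 0.29. The cause of these shifts was not tested. Signs turned for small changes: ZNF415 (-2.57e-05 with RLE scaling, -0.00618 with DESeq2, -0.0158 with no filter), SETDB1 (0.13 with library size, 0.10 with upper quartile, 0.068 with a minimum mean of 50), ZNF224 (0.000246 with library size), ZNF227 (0.049 and 0.0166) and ZNF616 (0.0541 and 0.0215) with library size and upper quartile scaling. Without 1 library ZNF415 ranged from -0.44 to 0.50 and SETDB1 from -0.036 to 0.021. Replicate numbers did not pair the libraries (correlations of deviations -0.009, -0.029 and -0.019), and with the replicate number as a block the same 6 zinc finger genes were called and the median of the 48 was -0.18, with 4184 of all genes called against 4322.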
